A study of Mus musculus with 8 samples.

Results

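The Adam genes encode the ADAM family, membrane proteins with a disintegrin and a metalloprotease domain. The members were taken as every gene of the table whose symbol is Adam followed by a number and at most 1 letter, a rule that used no measured value, and 33 of the 19906 genes met it. They were measured by RNA sequencing in whole testes of mice aged 2 months. The libraries came from 4 Tmem232-/- mice and 4 Tmem232+/+ wild-type mice, 1 library per mouse. The Tmem232-/- mice carried, in every cell of the body, a CRISPR-Cas9 deletion of part of Tmem232 that shifts its reading frame, made in C57BL/6 embryos. The Tmem232+/+ mice carried no such deletion, the strain of the wild-type mice and any shared litters are not given in the labels, and no treatment is named. Tmem232 encodes a transmembrane protein of the testis that the study linked to the sperm flagellum, and the sequencing asked which testis transcripts differ between the genotypes.

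Most ADAM proteins of the mouse testis are made in germ cells and reach the surface of sperm, where they act as adhesion proteins in complexes with each other. Their prodomain and often their metalloprotease domain are removed as sperm mature. A testis group arose as copies without introns in the coding sequence, among them the testases, while other members sit at the surface of many cell types and release growth factors, receptors and adhesion proteins by cutting them close to the membrane. In the gene models of GENCODE M21, 15 of the 33 members had their coding sequence in 1 exon, and the other 18 had it in 16 to 30 exons.

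Total counts per library lay between 15428421 and 16350871, and no library duplicated another of its group. Counts of Tmem232 itself did not verify the labels. The libraries labelled Tmem232-/- held 122 to 148 CPM (counts scaled to a common library size after TMM) and those labelled Tmem232+/+ held 106 to 111 CPM, so the targeted gene was higher under the knockout label (log2 fold change 0.27 ± 0.07, adjusted p = 0.034), a call lost with a replicate block and in 4 of the 8 fits that left out a library, with the direction kept. The count covers all exons of the gene, so a transcript that lacks the deleted exons is still counted. The genotypes are therefore named below by the labels of the libraries, and every direction given rests on those labels: exchanged labels would turn all of them. Markers of late germ cells differed strongly between the groups: 10 of 10 markers of elongating spermatids rose, with a summed level of 1330 to 2204 CPM under the Tmem232-/- label against 339 to 680.5 CPM. Prm1, a protamine gene of late spermatids, was at 44.3 to 132 CPM against 1.63 to 7.54 CPM. Under the Tmem232+/+ label, Prm1, Prm2, Tnp1 and Tnp2 had means of 4.55, 6.44, 5.95 and 16.6 CPM. Whether such levels are usual for wild-type testis at this age was not tested, so a rise below is relative to these libraries alone. Whether the testes of the 2 labels differed in the stage of their germ cells was not tested. In whole testis, fewer cells of a type and less RNA per cell cannot be told apart.

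Of the 33 ADAM genes, 13 rose and 0 fell in the libraries labelled Tmem232-/-, taking as called an adjusted p under 0.05 in edgeR's quasi-likelihood test over 15787 genes. Among all tested genes, 10.3% were called higher and 1.46% lower. At an unadjusted p under 0.05, 15 members were higher and 1, Adam8, was lower, beside 2306 higher and 1656 lower of all 15787 tested genes. DESeq2 called 15 members higher and 0 lower, beside 1773 higher and 217 lower of the same genes. All 13 rose by a fold of 2 or more, against 5.23% of all tested genes (0.0443% fell by as much). In each of the 13, the lowest library labelled Tmem232-/- stood above the highest library labelled Tmem232+/+, a separation that 11.8% of all tested genes show in this direction and 6.88% in the other. The filter on low counts kept 31 members and removed Adam7 and Adam28. The log2 fold changes of the 13 ranged from 1.12 (Adam26b) to 2.26 (Adam6a). The median over the 31 tested members was 0.18, and that over all tested genes was -0.05.

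The 13 genes share a gene structure. Each has its coding sequence in 1 exon, so 13 of the 15 such members rose (median log2 fold change 1.28), and Adam1b and Adam30 were the 2 that did not pass. Of the 16 tested members with several coding exons, 0 passed in edgeR's test and 2, Adam3 and Adam32, in DESeq2's, and their median was 0.02. Beyond the ADAM genes, 207 of 1069 tested genes with 1 coding exon were called higher (19.4%), against 1311 of 14178 with several coding exons (9.25%). The comparison of structures is a description of counts, and no test was made over the members.

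**Figure D1:**
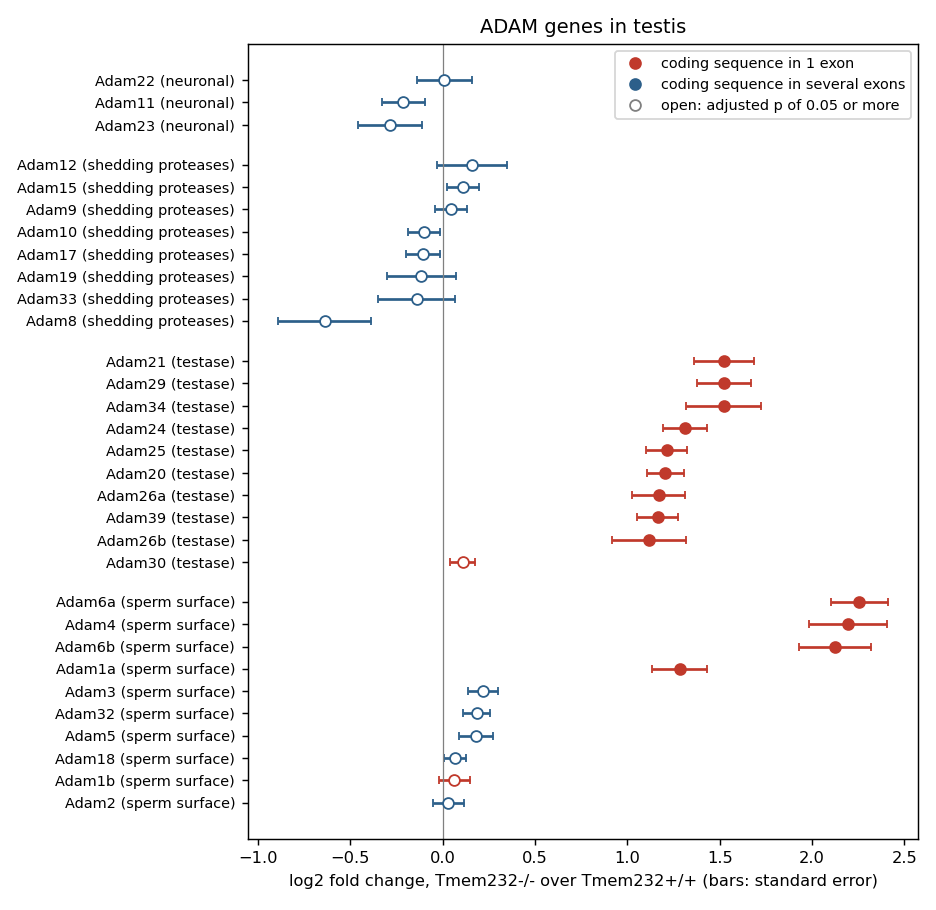
Log2 fold change of each of the 31 tested ADAM genes (x axis, libraries labelled Tmem232-/- over those labelled Tmem232+/+, 4 per genotype), with its standard error as a bar, grouped by role. Red marks genes with 1 coding exon and blue those with several, and filled points passed an adjusted p of 0.05; the 13 filled points lie between 1.12 and 2.26 and all are red.

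Adam6a and Adam6b are related genes without introns at the immunoglobulin heavy chain locus, and their protein, ADAM6, associates with ADAM2 and ADAM3 on sperm and is needed for male fertility. Adam6b lies at chr12:113489565-113491835 and Adam6a at chr12:113543908-113546414 (GRCm38), within 56.9 kb. Their promoters are shown because both genes moved together; TATAAA and CAACTG, on either strand, are in capitals, and each window runs from 250 bases before to 50 bases after the RefSeq start (GRCm38.p6, plus strand, chr12:113543658-113543957 for Adam6a and chr12:113489315-113489614 for Adam6b).
Adam6a: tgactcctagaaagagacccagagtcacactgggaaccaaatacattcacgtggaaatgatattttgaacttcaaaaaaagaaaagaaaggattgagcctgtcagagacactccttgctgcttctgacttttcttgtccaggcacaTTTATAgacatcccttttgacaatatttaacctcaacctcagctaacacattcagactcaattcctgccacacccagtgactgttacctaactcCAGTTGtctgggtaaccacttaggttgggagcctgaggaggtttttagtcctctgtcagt
Adam6b: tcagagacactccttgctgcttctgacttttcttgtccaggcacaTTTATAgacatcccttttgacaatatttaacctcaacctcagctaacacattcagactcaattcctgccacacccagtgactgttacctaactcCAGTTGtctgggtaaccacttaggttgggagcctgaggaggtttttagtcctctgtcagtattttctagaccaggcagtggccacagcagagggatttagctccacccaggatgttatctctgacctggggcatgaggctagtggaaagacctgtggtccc
The 2 windows share an identical run of 199 bases, placed 101 bases further upstream relative to the annotated start in Adam6b, and this run holds both motifs in both genes. TATAAA occurs in 13.6% and CAACTG in 13.7% of the 32851 promoters of the RefSeq table, counting both strands.

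Adam6a was at 39.5, 40.5, 36.9 and 38.1 CPM in replicates 1 to 4 of the Tmem232-/- label and at 7.98, 5.27, 9.94 and 9.27 CPM in those of the Tmem232+/+ label; the genes below are given in the same order. Its log2 fold change was 2.26 ± 0.15 (standard error, SE; adjusted p = 1.6e-05), the largest of the family. Adam6b was at 21.9, 27.1, 21.3 and 22.7 CPM and 5.98, 3.03, 6.90 and 5.40 CPM, a log2 fold change of 2.13 ± 0.20 (adjusted p = 3.8e-05). Both genes were lowest in the Tmem232+/+ replicate 2 library, and the groups stood apart in both. The log2 ratio of Adam6a to Adam6b was 0.58 to 0.85 where the label was Tmem232-/- and 0.42 to 0.80 elsewhere. Its mean differed by 0.11 between genotypes, inside the spread of the libraries (two-sided exact permutation over 70 arrangements, p = 0.286). The pairs of related genes were chosen with earlier results of these data known, which holds for every pair test below. Of the stretches of 100 bases in the transcripts, 13.1% of those of Adam6a and 13.2% of those of Adam6b occur in the other gene, so part of the reads could be split between them.

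Adam4 encodes another sperm surface protein that joins the ADAM2 and ADAM3 complex, in a single exon at chr12:81419443-81422039. It was at 17.4, 16.3, 13.3 and 15.1 CPM against 3.05, 1.88, 4.43 and 4.18 CPM, and its log2 fold change was 2.20 ± 0.21 (adjusted p = 4.9e-05). The lowest library labelled Tmem232-/-, replicate 3, held 13.3 CPM, and the highest labelled Tmem232+/+ held 4.43 CPM. Adam4 shares 5.57% of its stretches of 100 bases with other genes, and its counts were not whole in 7 libraries.

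The fertilin alpha genes Adam1a and Adam1b gave unlike values. Fertilin is a dimer of an ADAM1 protein with ADAM2; the ADAM1A form stays in the endoplasmic reticulum of testis germ cells, where it takes part in the transport of ADAM3 to the surface, and the ADAM1B form is on sperm. Both are single-exon genes on the minus strand of chromosome 5, at chr5:121518604-121521695 and chr5:121500097-121502980, within 21.6 kb of each other. Their promoters (RefSeq, GRCm38.p6, minus strand, chr5:121521646-121521945 for Adam1a and chr5:121503386-121503685 for Adam1b) are shown because neighbouring copies differed, with capitals as above.
Adam1a: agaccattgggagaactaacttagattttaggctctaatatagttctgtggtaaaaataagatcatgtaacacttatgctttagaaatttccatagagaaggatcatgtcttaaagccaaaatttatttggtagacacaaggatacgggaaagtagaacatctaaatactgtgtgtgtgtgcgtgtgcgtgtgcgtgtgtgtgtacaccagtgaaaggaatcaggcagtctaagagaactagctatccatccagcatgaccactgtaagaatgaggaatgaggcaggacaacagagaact
Adam1b: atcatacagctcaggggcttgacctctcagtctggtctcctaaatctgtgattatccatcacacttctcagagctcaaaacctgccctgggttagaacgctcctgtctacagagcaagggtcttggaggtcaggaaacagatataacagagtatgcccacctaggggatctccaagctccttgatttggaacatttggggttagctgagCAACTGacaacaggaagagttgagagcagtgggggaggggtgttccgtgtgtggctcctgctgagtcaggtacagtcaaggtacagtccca
The longest run these windows share is 8 bases. Adam1b holds 1 CAACTG, at position -41 from the start, and 51.0% G and C, and the Adam1a window holds neither motif and 39.7% G and C. In GENCODE M21 the Adam1a model begins further upstream, at chr5:121545482 on the minus strand, so this RefSeq window lies inside it. The contrast holds for the RefSeq starts only.

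Adam1a was at 58.4, 71.4, 61.3 and 52.2 CPM against 28.0, 19.0, 22.2 and 30.8 CPM, a log2 fold change of 1.28 ± 0.15 (adjusted p = 0.00013). Adam1b was at 169, 179, 170.1 and 152 CPM against 178, 162, 141 and 160.2 CPM, with a log2 fold change of 0.06 ± 0.08 (adjusted p = 0.669). The Adam1a groups did not overlap and the Adam1b groups did. Adam1a reached 0.344 to 0.399 of the Adam1b level under the Tmem232-/- label and 0.117 to 0.192 under the other. The log2 ratio thus differed by 1.23 between genotypes, with no overlap (exact permutation p = 0.029, two-sided, and no smaller value is possible with 4 libraries against 4; Benjamini-Hochberg adjusted over 8 pairs, p = 0.076, which misses 0.05). Adam1a is a difficult gene to count: 76.5% of its transcript stretches of 100 bases occur in another gene, 61.8% in Gm42878, a gene model that overlaps it on the same strand. These shares cover all GENCODE transcripts of Adam1a, whose model spans chr5:121518576-121545482. The counted gene spans only chr5:121518604-121521695, and its own share was not computed. Adam1b shares 30.3% of its stretches with Adam1a. Both had counts that were not whole in 8 of 8 libraries, so their values rest on how the authors' counting divided shared reads.

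**Figure D2:**
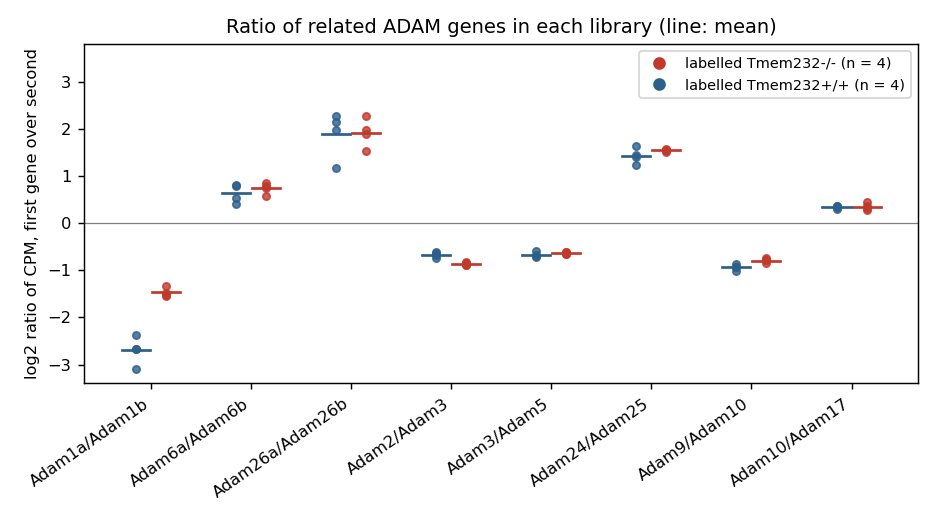
Log2 ratio of CPM of the first gene over the second (y axis) for 8 pairs of related ADAM genes in each library, red for libraries labelled Tmem232-/- and blue for those labelled Tmem232+/+, with a line at the mean of 4. The Adam1a to Adam1b ratio shows the widest gap, at a mean of -1.47 against -2.70, and the groups overlap for Adam6a to Adam6b and for Adam26a to Adam26b.

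The other sperm surface members have many coding exons, and Adam5, Adam3, Adam32 and Adam2 among them were the most abundant ADAM transcripts per length. ADAM2 is fertilin beta, the partner of both ADAM1 forms. ADAM3, or cyritestin, is needed for sperm to bind the zona pellucida and to enter the oviduct, and many mutants of sperm surface maturation lose it. Adam5, the member with the highest level per length (425 ± 38.2 FPKM in the libraries labelled Tmem232+/+, SD, n = 4), was at 1218, 1332, 1364 and 1132 CPM against 1266, 1094, 975 and 1122 CPM. Its log2 fold change was 0.18 ± 0.09 (adjusted p = 0.255). Adam3 was at 775, 869.6, 870.0 and 743 CPM against 771, 676, 648 and 705 CPM, a log2 fold change of 0.22 ± 0.08 (adjusted p = 0.116). For both genes the ranges of the groups overlapped.

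Adam32, a testis member beside Adam3 and Adam5, was at 684, 740.4, 742 and 665 CPM against 687, 603, 574 and 628 CPM (log2 fold change 0.18 ± 0.07, adjusted p = 0.153). Adam3 passed with DESeq2 (0.24, adjusted p = 0.034) and Adam32 also did (0.21, adjusted p = 0.049). In edgeR's test Adam3 passed without the Tmem232-/- replicate 4 library (0.27) or the Tmem232+/+ replicate 1 library (0.31), and Adam32 passed without the latter (0.27). Adam18 was at 127, 131, 135 and 128 CPM against 131, 117, 124 and 126 CPM (log2 fold change 0.07 ± 0.06, adjusted p = 0.530). Adam2 was at 435, 471, 487 and 403 CPM against 479.9, 440.4, 387 and 451 CPM (log2 fold change 0.03 ± 0.09, adjusted p = 0.853). Both overlapped between the genotypes.

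Of the 10 genes of the sperm surface group, 4 rose, all of them among the 5 with 1 coding exon (median log2 fold change of the 5, 2.13). The 5 with several coding exons had 0 called by edgeR, 2 at an unadjusted p under 0.05 and a median of 0.18. The Adam2 to Adam3 ratio was 0.542 to 0.562 in the libraries labelled Tmem232-/- and 0.598 to 0.651 in the others, a small shift without overlap (difference of log2 ratio -0.19, exact permutation p = 0.029, adjusted over 8 pairs p = 0.076). The Adam3 to Adam5 ratio differed by 0.04 on the log2 scale (exact permutation p = 0.257). Among the other pairs, Adam9 to Adam10 also shifted without overlap (0.14, exact permutation p = 0.029, adjusted p = 0.076), and Adam24 to Adam25 (0.11, p = 0.229) and Adam26a to Adam26b (0.02, p = 0.914) overlapped.

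**Figure D3:**
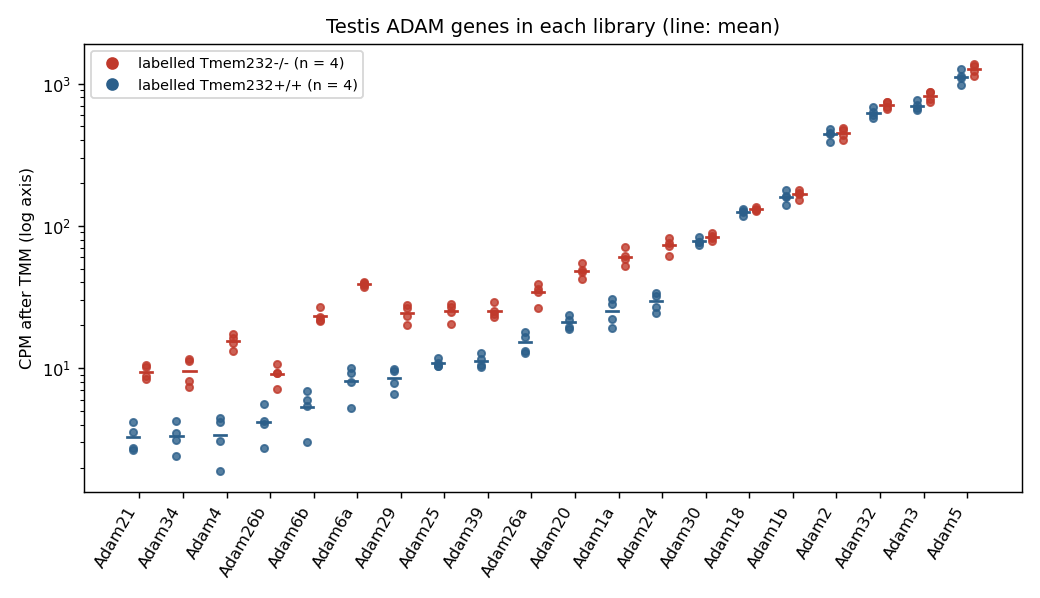
CPM after TMM scaling (y axis, log scale) of the 20 sperm surface and testase ADAM genes in each library, ordered by the mean of the libraries labelled Tmem232+/+ (blue) with those labelled Tmem232-/- in red and a line at each mean of 4. The 13 least abundant genes, up to Adam24, show red above blue with no overlap, and the 7 most abundant, from Adam30 to Adam5, overlap.

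Level and response went together among the testis members. In the libraries labelled Tmem232+/+, the 13 genes that rose had means of 1.21 to 11.1 FPKM, and the 7 other genes of the sperm surface and testase groups had means of 23.3 to 425 FPKM. The 2 single-exon genes that did not pass, Adam1b at 59.7 ± 4.74 FPKM and Adam30 at 23.3 ± 0.88 FPKM (SD, n = 4), were the most abundant of the single-exon members. In order of level, Adam5 led Adam3 (292 ± 9.27 FPKM) and Adam32 (277 ± 15.9 FPKM), whose means differ by about the spread of Adam32, then Adam2 (183 ± 13.7 FPKM). Adam1b and Adam18 (57.6 ± 1.64 FPKM) were within their spread of each other. After the rise, Adam24, the most abundant of the 13, reached 26.8 ± 2.81 FPKM, which is above Adam30 at 24.6 ± 1.22 FPKM in the same libraries but within their spread.

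The testases and the genes close to them all have 1 coding exon, and 9 of these 10 rose (median log2 fold change 1.21). Adam24, testase 1, encodes an active protease of the surface of mature sperm. It lies at chr8:40675077-40682199, first of a cluster of 152 kb with Adam25 (testase 2), Adam20 and Adam39. Adam24 was at 82.4, 76.1, 72.4 and 60.9 CPM against 27.0, 24.2, 32.3 and 34.0 CPM (log2 fold change 1.31 ± 0.12, adjusted p = 3.9e-05). It shared no stretch of 100 bases with another gene. Adam25 was at 28.1, 26.9, 24.9 and 20.5 CPM against 10.3, 10.3, 11.8 and 10.9 CPM (1.21 ± 0.11, adjusted p = 3.7e-05).

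Adam20 was at 54.6, 47.6, 49.2 and 42.2 CPM against 19.4, 18.9, 23.7 and 21.9 CPM (1.21 ± 0.10, adjusted p = 2.6e-05). Adam39 was at 29.0, 25.3, 23.9 and 22.7 CPM against 11.6, 10.1, 12.9 and 10.5 CPM (1.16 ± 0.11, adjusted p = 4.3e-05). In all 4 genes of the cluster the Tmem232-/- replicate 4 library was the lowest of its group and still above every library labelled Tmem232+/+. Adam25, Adam20 and Adam39 share 16.3%, 19.1% and 16.4% of their stretches with other genes, mostly with each other. The promoters of Adam20 (chr8:40793023-40793322) and Adam25 (chr8:40751958-40752257, both plus strand, RefSeq, GRCm38.p6) show the same kinship, with the longest identical run of 88 bases at nearly the same place in both, and neither motif is in them.
Adam20: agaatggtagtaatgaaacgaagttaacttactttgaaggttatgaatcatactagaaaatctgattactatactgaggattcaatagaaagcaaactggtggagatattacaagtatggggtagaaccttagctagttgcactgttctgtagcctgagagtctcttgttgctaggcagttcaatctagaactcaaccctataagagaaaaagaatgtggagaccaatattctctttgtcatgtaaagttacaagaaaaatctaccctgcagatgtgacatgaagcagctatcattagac
Adam25: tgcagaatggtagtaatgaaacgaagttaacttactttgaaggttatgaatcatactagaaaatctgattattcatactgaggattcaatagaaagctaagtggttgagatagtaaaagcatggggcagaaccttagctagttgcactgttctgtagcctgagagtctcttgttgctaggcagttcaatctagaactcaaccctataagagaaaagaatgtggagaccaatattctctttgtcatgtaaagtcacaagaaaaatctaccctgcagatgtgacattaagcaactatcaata

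The second testase cluster spans 183 kb at chr8:43519864-43703335 and holds Adam26b, Adam26a (testase 3) and Adam34 (testase 4). Adam26a was at 39.3, 36.2, 34.4 and 26.4 CPM against 16.6, 13.1, 12.7 and 18.1 CPM (log2 fold change 1.17 ± 0.15, adjusted p = 0.00022). Adam26b was at 10.6, 9.16, 7.15 and 9.16 CPM against 4.24, 2.72, 5.64 and 4.05 CPM (1.12 ± 0.20, adjusted p = 0.0028), the smallest rise of the 13. Adam34 was at 11.2, 11.5, 7.34 and 8.05 CPM against 3.12, 2.42, 4.24 and 3.50 CPM (1.52 ± 0.20, adjusted p = 0.00035). All 3 genes were apart between the genotypes, and Adam34 fell into a higher pair, replicates 1 and 2, and a lower pair, replicates 3 and 4, in the libraries labelled Tmem232-/-. Adam26a and Adam26b share 17.2% and 14.9% of their stretches of 100 bases with other genes, mostly with each other, and Adam34 shares 6.53%. Counts of Adam26a and Adam26b were not whole in 8 libraries, so their values and ratio also rest on how shared reads were divided.

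Adam29 and Adam21 lie outside these clusters and share no stretch of 100 bases with another gene. Adam29, at chr8:55870912-55906964, encodes a testis member without the residues of an active protease. It was at 27.8, 26.4, 23.3 and 20.04 CPM against 7.85, 6.60, 9.88 and 9.58 CPM (1.52 ± 0.15, adjusted p = 4.8e-05). Adam21, at chr12:81558575-81568474 near Adam4, was at 10.4, 10.2, 8.85 and 8.36 CPM against 4.17, 2.72, 2.66 and 3.56 CPM (1.52 ± 0.16, adjusted p = 8.3e-05). Of the 4 single-exon members without a shared stretch (Adam21, Adam24, Adam29 and Adam30), 3 rose; the read length is not given in the sources used here, so sharing of shorter stretches was not tested. Adam30, on chromosome 3 at chr3:98160634-98164169, was the exception, at 77.6 to 89.4 CPM against 73.1 to 83.7 CPM (0.11 ± 0.07, adjusted p = 0.364).

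**Figure D4:**
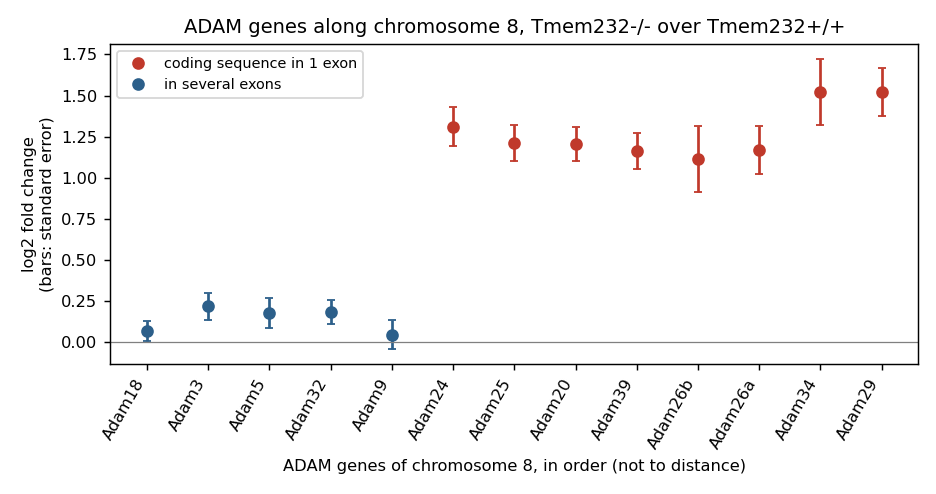
Log2 fold change (y axis, bars are standard errors) of the 13 ADAM genes of chromosome 8 in their order along it, not to distance, red for 1 coding exon and blue for several. The 5 genes from Adam18 to Adam9 lie between 0.05 and 0.22, and the 8 genes from Adam24 to Adam29 lie between 1.12 and 1.52.

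Chromosome 8 carries 13 of the 33 members and shows the split by structure side by side. The first cluster, at chr8:24602246-25016934 (415 kb), holds Adam18, Adam3, Adam5, Adam32 and Adam9, all with several coding exons. In edgeR's test 0 of the 5 passed, and DESeq2 called 2 of them higher, Adam3 and Adam32. The 8 single-exon members further along the chromosome all rose. The part of their neighbourhood in the difference was not tested.

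The highest and lowest libraries of a label were often the same ones across the 13 genes. Among the libraries labelled Tmem232-/-, replicate 1 was the highest in 9 genes and replicate 2 in 4, while replicate 4 was the lowest in 8 and replicate 3 in 5. Among those labelled Tmem232+/+, replicate 2 was the lowest in 10, and replicate 3 was the highest in 9 and the lowest in 2. Summed over the 13 genes, the libraries labelled Tmem232-/- held 431, 424, 384 and 347 CPM, replicates 1 to 4, and the others 149, 120.3, 159 and 166 CPM. The summed markers of elongating spermatids were at 2204, 1753, 1329.7 and 2064 CPM and 436, 339, 680.5 and 492 CPM. Replicate 2 was the lowest and the groups were apart in both sums for the genotype labelled Tmem232+/+, whereas replicate 4 of the other genotype was lowest for the ADAM sum and second highest for the markers. The part of late germ cells in the rise of the 13 genes was not tested.

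Promoters of 17 members stood in the RefSeq table. The CRE motif TGACGTCA, bound by factors of the CREM family in spermatids, was in 0 of the 17 members, counting any of the 3 windows of Adam19, and in 1.79% of all promoter windows, and its core TGACG was in that of Adam10 alone (20.8% of all promoters). TATAAA was in those of Adam6a, Adam6b and Adam29. CAACTG was in those of Adam1b, Adam6a, Adam6b, Adam8 and Adam19. The share of G and C was 35.3% (Adam29) to 51.0% (Adam1b) in the 10 single-exon members and 49.3% (Adam19) to 73.3% (Adam10) in the 7 with several coding exons, against a median of 52.7% and quartiles of 45.7% and 61.7% over all promoters. Such matches describe letters in these windows and are no evidence of binding.

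No protease of the group found in many tissues passed the test. ADAM10 cuts Notch receptors and many adhesion proteins, and ADAM17 releases tumour necrosis factor and ligands of the epidermal growth factor receptor. Adam10 was at 52.4, 56.4, 58.6 and 51.5 CPM against 57.6, 64.6, 50.2 and 62.3 CPM (log2 fold change -0.10 ± 0.09, adjusted p = 0.501). Adam17 was at 43.1, 44.2, 47.2 and 37.7 CPM against 47.0, 50.3, 39.7 and 48.2 CPM (-0.11 ± 0.09, adjusted p = 0.514). Both overlapped between the genotypes, and their ratio differed by 0.01 on the log2 scale. Adam17 shares 311 bases of exon with Iah1 on the opposite strand, and the strand setting of the counting is not given in the sources used here.

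Of the 8 genes of this group, 0 passed in either direction with edgeR, DESeq2 or limma-voom (median log2 fold change -0.10), and 1, Adam8, had an unadjusted p under 0.05. Adam8, a protease of leukocytes, had the lowest value at -0.64 ± 0.25 (adjusted p = 0.142), with 1.32 to 2.83 CPM against 2.21 to 3.18 CPM. Without the Tmem232-/- replicate 4 library, which held 2.83 CPM, Adam8 was called lower (-0.94, adjusted p = 0.012). The 3 neuronal members, Adam11, Adam22 and Adam23, which lack protease activity and bind LGI proteins at synapses, had log2 fold changes of -0.21, 0.01 and -0.28, with 0 calls by any of the 3 tools and 0 at an unadjusted p under 0.05. Over these 11 genes the levels in the libraries labelled Tmem232+/+ were 0.54 to 13.4 FPKM, which overlaps the range of the 13 genes that rose.

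Adam7 and Adam28 were too low to test. ADAM7 is made by the epididymis, the duct that receives sperm from the testis, and passes from there to the sperm surface. It had 10, 0, 0 and 3 counts under the Tmem232-/- label and 72, 0, 13 and 1 under the other, where a count of 0 allows up to 3 counts. Of the 6 epididymis markers in the table, the summed level was 5.99, 0.06, 0.13 and 1.23 CPM in the first group and 30.5, 0.30, 11.6 and 0.18 CPM in the second. Replicate 1 was highest for Adam7 and for this sum in either genotype, and Crisp1 made up most of the sum there (27.0 CPM in the Tmem232+/+ replicate 1 library). Lcn5 was at 0 in the 4 libraries labelled Tmem232-/-, and Crisp1, the single tested marker, had a log2 fold change of -2.54 (adjusted p = 0.280). Leaving out a library moved the median of the tested epididymis markers to between -4.85 and -1.03. The part of epididymis tissue in the Adam7 counts was not tested. Adam28 was at 0 to 0.57 CPM.

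Genes that act on ADAM proteins were taken as lists. Of 19 chaperones and maturation factors of sperm surface ADAMs, 18 were in the table, 6 were higher and 4 lower (median 0.07). These are 33.3% and 22.2% of the tested genes of the list, against 10.3% and 1.46% of all tested genes. Spaca1, among the higher, and Tex101, among the lower, also stand in the list of round spermatid markers below. The higher ones with the largest change were Prss37 (3.45 ± 0.35, adjusted p = 5.9e-05), a protease-like protein needed for ADAM3 maturation, and Calr3 (2.21 ± 0.20, adjusted p = 3.7e-05), a testis calreticulin that chaperones ADAM3. The lower ones with the largest change were Ly6k (-0.29 ± 0.08, adjusted p = 0.043) and Tex101 (-0.29 ± 0.08, adjusted p = 0.045), GPI-anchored proteins that ADAM3 also depends on. The 4 lower calls were close to the threshold, and leaving out any 1 library gave 0 to 1 lower calls in the list. Clgn, the chaperone calmegin, was at 1236 ± 114 CPM against 1187 ± 116 CPM (SD, n = 4; 0.06 ± 0.09, adjusted p = 0.730).

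The partners of ADAM10 and ADAM17, such as the iRhoms, the TspanC8 tetraspanins and furin, had 0 of 12 tested genes called by edgeR (median -0.19). At an unadjusted p under 0.05, 6 of them were lower, where 1656 of all 15787 tested genes were lower and 2306 higher, and DESeq2 and limma-voom each called 1 lower, Tspan17 (-0.38 ± 0.11 in edgeR's test, adjusted p = 0.051). The 5 tested metalloprotease inhibitors had 0 calls by any of the 3 tools and 0 at an unadjusted p (median -0.11). Of 16 tested Adamts genes, the secreted relatives of the family, Adamts20 was higher (0.68 ± 0.18, adjusted p = 0.035) and Adamts8 lower (-1.16 ± 0.27, adjusted p = 0.013). The higher call was lost with DESeq2, with a replicate block and on leaving out any 1 library other than Tmem232-/- replicate 3. The lower call was lost with that block and without the Tmem232+/+ replicate 1 library.

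The cell type lists placed the ADAM values beside the make-up of the RNA. Round spermatid markers had 7 of 10 genes higher and 1 lower (median 1.06); Spata25 (1.92) and Catsper3 (1.27) rose most and Spaca3 (0.95) rose least of the 7. The lower call was Tex101, which was lost on leaving out any 1 library. Elongating spermatid markers had 10 of 10 higher (median 2.18); Prm2 (4.44) and Prm1 (4.40), the protamines that pack sperm DNA, rose most, and Odf1 and Smcp, proteins of the sperm tail, rose least (1.33 and 1.38). Spermatocyte markers had 0 of 8 called and 3 lower at an unadjusted p under 0.05 (median -0.12). Spermatogonia had 3 of 8 lower, Uchl1, Stra8 and Sall4 (median -0.35). At an unadjusted p under 0.05, 5 spermatogonia markers were lower and 1 higher, and Gfra1 had a log2 fold change of 0.42. Markers of peritubular myoid cells had 2 of 5 lower, Acta2 and Myh11 (median -0.35). Without the Tmem232+/+ replicate 1 library, 1 marker of spermatogonia and 0 of myoid cells were called lower. Those of Sertoli cells (median -0.14), Leydig cells (0.47), macrophages (0.12), endothelial cells (-0.01) and red blood cells (-0.63) had 0 calls by edgeR. At an unadjusted p under 0.05, 5 of 6 Leydig cell markers were higher, and 1 of 8 Sertoli cell and 1 of 5 endothelial cell markers were lower, beside the 2306 higher and 1656 lower of all 15787 genes. DESeq2 called 2 Leydig cell markers higher, Star and Lhcgr, and limma-voom 1, Lhcgr.

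The olfactory receptor genes (Olfr), another large family with the coding sequence mostly in 1 exon, served as a comparison. Of 311 in the table, 18 passed the filter on low counts, and 5 of these were higher and 1 lower (5 and 0 with DESeq2, 4 and 1 with limma-voom), against 19.4% higher among the single-exon genes other than ADAM. That set also holds the single-exon Olfr genes. The filter asks for enough counts in 4 libraries, so a low gene can pass through 1 label alone, which limits the comparison. Their summed level was 129 to 171 CPM in the libraries labelled Tmem232-/- and 85.7 to 133 CPM in the others, with an overlap of the groups.

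**Figure D5:**
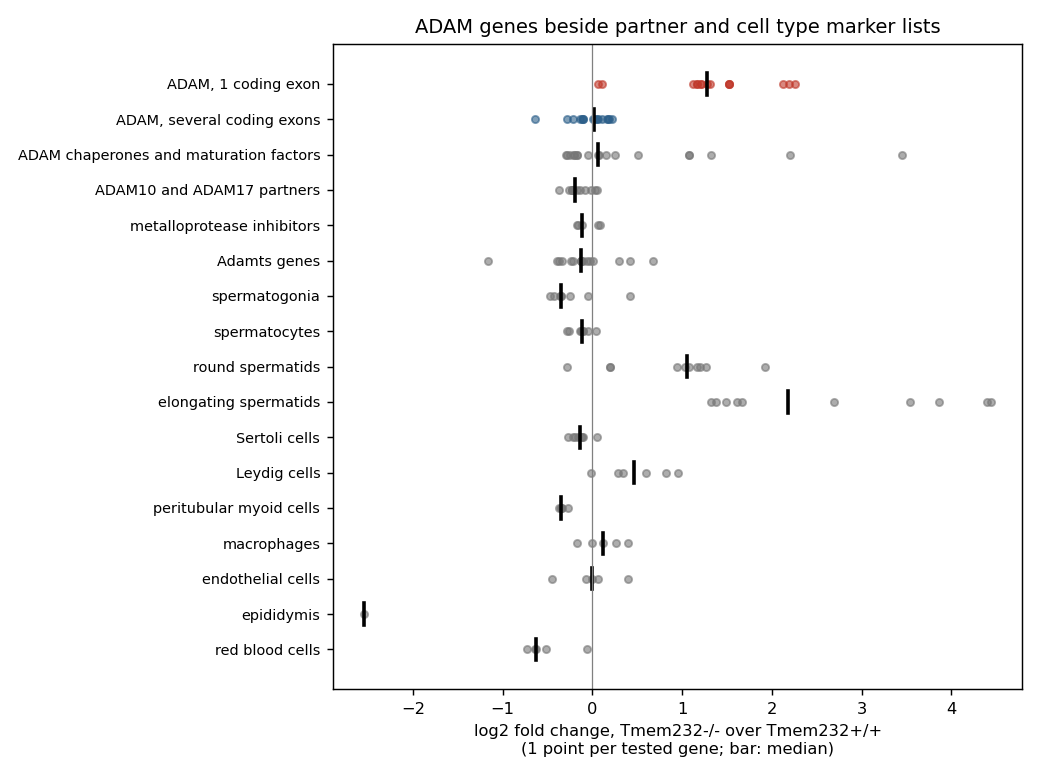
Log2 fold change (x axis) of each tested gene of the ADAM family by coding structure and of each list of partners and cell type markers, 1 point per gene and a black bar at the median. The median of single-exon ADAM genes (1.28) lies between those of round spermatid markers (1.06) and elongating spermatid markers (2.18), their single values (0.06 to 2.26) overlap both lists, and ADAM genes with several coding exons have their median at 0.02.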

How the data were processed

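RNA was isolated from whole testes with TRIzol, made into libraries with a TruSeq RNA kit and sequenced in read pairs. Per the labels and the study's methods, reads of low quality were dropped, the remainder was aligned to GRCm38.p6 (HISAT, Bowtie2) and assigned to genes (StringTie, featureCounts), and the authors tested genotypes with DESeq2; versions and the strand setting are not given in the sources used here. The deposited values are estimated counts without normalization, and 10.7% to 11.2% of genes per library have a count that is not whole (tolerance 0.001). They were rounded before testing. The authors also gave FPKM, which divides by transcript length and library total, and this unit was used for levels between genes. The deposited fold changes and p-values of the authors' own comparison were not used.

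Genes were kept by filterByExpr (15787 of 19906), scaled by TMM and tested with edgeR 4.0.16 (quasi-likelihood, R 4.3.3) with Benjamini-Hochberg adjustment over all tested genes. Values printed as ± are standard errors of the log2 fold change unless named SD. Related pairs were compared by an exact permutation test of the log2 ratio over 70 arrangements. Alternatives were DESeq2 1.42.0, limma-voom (limma 3.58.1), limma on log2(FPKM + 1) and log2(FPKM + 0.1), other size factors and filters, a replicate block, and leaving out each library in turn. The fits were tested on simulated data. Coding exons come from the transcript with the longest coding sequence in GENCODE M21, which matched 18969 genes, and promoters from RefSeq. Shared stretches are runs of 100 bases of a gene's transcripts that occur in transcripts of another gene on either strand.

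Members whose groups differ at an adjusted p under 0.05, the other members of the sperm surface group, Adam10 and Adam17 are given in every library. Of lists with many calls, only genes with the largest or smallest changes among those called are named. The members, lists and pairs were chosen with earlier results of these data known, although the rule that picks the members used no measured value. The libraries are of separate mice. Limits of 3 counts for a count of 0 cover counting error only.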

Additional observations from a re-analysis of the deposited data

Results flagged for a closer look

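Of 82 groups of 4 libraries examined, about 4.1 would hold a library far from the others by chance at this limit (the 95% limit of Dixon's ratio, the gap over the range), and 6 did. None of them is in a gene that rose. Adam33 was lower in the Tmem232-/- replicate 3 library (1.14 CPM, ratio 0.849), and so was Adam15 (22.6 CPM, ratio 0.872). Adam12 was lower in the Tmem232-/- replicate 1 library (4.53 CPM, ratio 0.868). Adam8 was higher in the Tmem232-/- replicate 4 library (2.83 CPM, ratio 0.859), the library on which its missed call rests. Adam28, a gene of few counts, was higher in the Tmem232-/- replicate 1 library (0.399 CPM, ratio 0.843) and in the Tmem232+/+ replicate 3 library (0.570 CPM, ratio 0.878).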

How the results depend on the processing

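Each of the 13 ADAM genes that rose kept its direction and its call under every alternative run, and the count of single-exon members called higher was 13 throughout. At a fold of 2 or more the ADAM count was 10 to 13. The cause of the changes below was not tested. With DESeq2, 2 ADAM genes with several coding exons were called higher, 1 partner of ADAM10 and ADAM17 lower, 0 Adamts genes higher and 2 Leydig cell markers higher. With DESeq2's size factors in edgeR, 131 genes in all were lower against 230, with 0 lower maturation factors, 0 lower round spermatid markers and 1 higher Leydig cell marker. With library size alone, 415 genes were lower, 1 partner was lower and the median over all genes was -0.087. Without a filter, 71 genes were lower, with 0 lower maturation factors, 0 lower round spermatid markers, 1 higher Leydig cell marker and a median over all genes of -0.010. With at least 10 counts in every library, 3 genes were lower by a fold of 2 against 7, with 1 lower maturation factor, 0 lower Adamts genes, 0 lower round spermatid markers and 1 higher Leydig cell marker. With limma-voom, 1 partner was lower and 1 Leydig cell marker higher. With log2(FPKM + 1), a scale that shrinks low genes, 466 genes were lower, 1 of them by a fold of 2, 1 partner was lower and the median of single-exon ADAM genes was 1.03. With log2(FPKM + 0.1), 448 genes were lower, 4 of them by a fold of 2, 1 partner was lower and the median over all genes was -0.086. At a fold of 1.5 in place of 2, 1260 genes were higher against 826 and 30 lower.

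Same-numbered libraries of the genotypes did not deviate together (correlations -0.06, 0.07, -0.33 and -0.11 for numbers 1 to 4), and no library correlated best with its own number. The numbers were not taken to pair the mice. With the replicate number as a block, 28 genes were lower, with 0 lower maturation factors, 0 higher and 0 lower Adamts genes, 0 lower round spermatid markers, 2 higher Leydig cell markers and 1 lower peritubular myoid marker, and the call of Tmem232 was lost (0.26, adjusted p = 0.114). In the pair tests the smallest p with that block is 0.125.

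When each library was left out in turn, 0 to 1 ADAM genes were lower (Adam8, without the Tmem232-/- replicate 4 library) and 0 to 2 with several coding exons were higher. The ADAM median was 0.15 to 0.27 and the median over all genes -0.056 to -0.0072. Over all genes 37 to 356 were lower, 6 to 12 of them by a fold of 2. Lower calls numbered 0 to 1 for maturation factors, 0 to 2 for partners, 0 to 1 for Adamts genes (higher calls also 0 to 1), 1 to 3 for spermatogonia (median -0.34 to -0.19), 0 for round spermatids, 0 to 2 for Sertoli cells, 0 to 2 for peritubular myoid cells, 0 to 1 for endothelial cells and 0 to 2 for red blood cells. Leydig cells had 0 to 1 higher calls. The medians were -0.02 to 0.27 for macrophages, -0.17 to 0.12 for endothelial cells and -1.03 to -0.40 for red blood cells. The call of Tmem232 was lost in 4 of the 8 cases. With 4 libraries per genotype, the pair tests could not pass their adjustment unless several pairs reached the smallest p.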
